A study of Mus musculus with 8 samples.

Results

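Genes that build sterols and fatty acids were examined in the tibialis anterior (TA) muscle of mice that had lost Sdhc in skeletal muscle. Of 8 listed genes (Hmgcs1, Sqle, Idi1, Fdps, Srebf1, Srebf2, Fasn and Scd1), 6 were found by symbol among the 23930 targets of the expression table. Idi1 and Fdps were not analysed here. The genes were listed by pathway, with earlier results of these data known. The KO group of 4 mice carried a tamoxifen-inducible Cre driven by the HSA promoter, which is active in skeletal muscle fibres, and a floxed Sdhc, labelled Inducible HSA-Cre/Lox-SDHC. The WT group of 4 littermates carried the same Cre and no floxed gene (Inducible HSA-Cre/No Lox). Both groups received tamoxifen at 12 weeks of age, and muscle was taken 3 weeks later. The strain is labelled C57BL/6 in the WT group and C57BL/7, C57BL/8, C57BL/11 and C57BL/12 in the 4 KO mice, whereas the growth protocol gives C57/B6 for all. The Cre acts in muscle fibres, so other cells of the tissue keep Sdhc. The comparison asks how muscle RNA differs 3 weeks after the loss of this membrane subunit of succinate dehydrogenase (complex II of the respiratory chain).

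Cholesterol is made from cytosolic acetyl-CoA through mevalonate, farnesyl diphosphate and squalene, and fatty acids are made from the same acetyl-CoA through malonyl-CoA. Both routes are under the control of the sterol regulatory element binding proteins (SREBPs), transcription factors held in the membrane of the endoplasmic reticulum and released by proteolysis when sterols run low. SREBP-2, encoded by Srebf2, acts mainly on sterol genes, and SREBP-1, encoded by Srebf1, mainly on fatty acid genes, where it also responds to insulin and to the liver X receptors (LXRs). Skeletal muscle makes little fat compared with liver and adipose tissue, and fat cells lying between the fibres are a further source of RNA for these genes. In bulk tissue, fewer cells of a type and less RNA per cell cannot be told apart.

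Promoters of 4 of the 6 genes were found in the RefSeq table (GRCm38.p6), and those of Hmgcs1, Srebf2 and Fasn are shown because these genes represent the sterol arm, its regulator and the fatty acid arm. Each sequence runs from 250 bases before to 50 bases after the annotated start, 5′ to 3′ on the strand of the gene. Capitals mark each exact match, on either strand, to CACCCCA, a core of the sterol regulatory element, and to the CCAAT box (CCAAT or its reverse complement ATTGG). The core was chosen with these promoters in view. The windows are chr13:119690101-119690400 on the plus strand for Hmgcs1, chr15:82147019-82147318 on the plus strand for Srebf2 and chr11:120824498-120824797 on the minus strand for Fasn.
Hmgcs1: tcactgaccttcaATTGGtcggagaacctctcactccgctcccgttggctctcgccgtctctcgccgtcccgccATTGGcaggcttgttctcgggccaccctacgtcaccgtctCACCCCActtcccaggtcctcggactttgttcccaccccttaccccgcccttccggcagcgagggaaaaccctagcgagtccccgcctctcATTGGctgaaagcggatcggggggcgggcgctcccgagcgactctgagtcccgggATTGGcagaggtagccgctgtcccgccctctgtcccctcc
Srebf2: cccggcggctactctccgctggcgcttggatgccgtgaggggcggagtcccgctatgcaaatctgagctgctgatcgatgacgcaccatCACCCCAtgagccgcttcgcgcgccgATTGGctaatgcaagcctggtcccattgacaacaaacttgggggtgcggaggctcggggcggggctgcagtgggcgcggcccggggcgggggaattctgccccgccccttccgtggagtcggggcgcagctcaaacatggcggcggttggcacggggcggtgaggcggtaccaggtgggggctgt
Fasn: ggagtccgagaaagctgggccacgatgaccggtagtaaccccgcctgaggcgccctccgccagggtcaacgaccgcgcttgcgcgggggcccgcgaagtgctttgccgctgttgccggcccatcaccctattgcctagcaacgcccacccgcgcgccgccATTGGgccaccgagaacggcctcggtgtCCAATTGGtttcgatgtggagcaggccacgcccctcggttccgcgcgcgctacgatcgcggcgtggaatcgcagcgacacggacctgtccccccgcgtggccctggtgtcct
Hmgcs1 and Srebf2 held 1 core each, which began 136 and 161 bases before the start, and 7.62% of the 32851 promoters of the table held at least 1. The letters of the core are not in the window of Fasn or in those of the 3 Srebf1 starts. Hmgcs1 held 4 CCAAT boxes, a count reached by 1.06% of promoters, Fasn held 3 (reached by 3.37%) and Srebf2 held 1 (reached by 37.4%). The motifs do not overlap each other, but 2 of the 3 boxes of Fasn overlap in the run CCAATTGG, read on opposite strands. These matches describe letters in a window, and no binding was measured.

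Values are given in RPM, the reads of 1 amplicon per gene scaled to a fixed total per library. Levels of different genes are not compared, since amplicons differ in how well they amplify. Where genes are called abundant below, the word refers to RPM only and served to choose which genes to name. Libraries held 5983175 to 9119006 reads, so that 3 reads, taken as the floor of detection, stood for 0.329 to 0.501 RPM. The targeted gene Sdhc had a mean of 797 ± 62.6 RPM among WT mice and 34.1 ± 19.1 RPM among KO mice (SD, n = 4 each), 4.28% of the WT mean, and followed the labels in every library. All 12 muscle fibre genes checked were detected, with a summed level of 151558 to 206584 RPM for WT and 164683 to 217489 RPM in KO. The summed RPM of fibroblast, tendon, macrophage and bone genes was lower in every KO library than in every WT library, although 0 genes of these lists passed the test used below. WT1 and WT4 held the most bone RNA (327 and 753 RPM, against 33.8 and 73.0 RPM in the other WT libraries and 13.4 to 30.7 RPM in KO). Sex is not labelled. Xist and 4 Y-linked genes marked replicates 1 and 3 of both groups as male and 2 and 4 as female.

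None of the members passed the test across the transcriptome. Group differences were fitted with limma on log2(RPM + 1) for the 11004 genes that averaged 1 RPM or more, with Benjamini-Hochberg (BH) adjustment over all of them and a threshold of 0.05. Of the 6 members, 5 were tested, and 0 passed in limma, in edgeR's quasi-likelihood test or in DESeq2. Over all genes 3 passed, 0.0273% of those tested, and all 3 were lower in KO. At an unadjusted p under 0.05, 2 of the 5 members were lower (Fasn and Scd1), where 8.56% of all genes were lower and 0.663% higher, 9.22% in either direction. The median log2 fold change of the 5 members was -0.24, beside -0.05 over all tested genes. Sqle fell short of the filter, with a mean of 0.902 RPM.

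**Figure D1:**
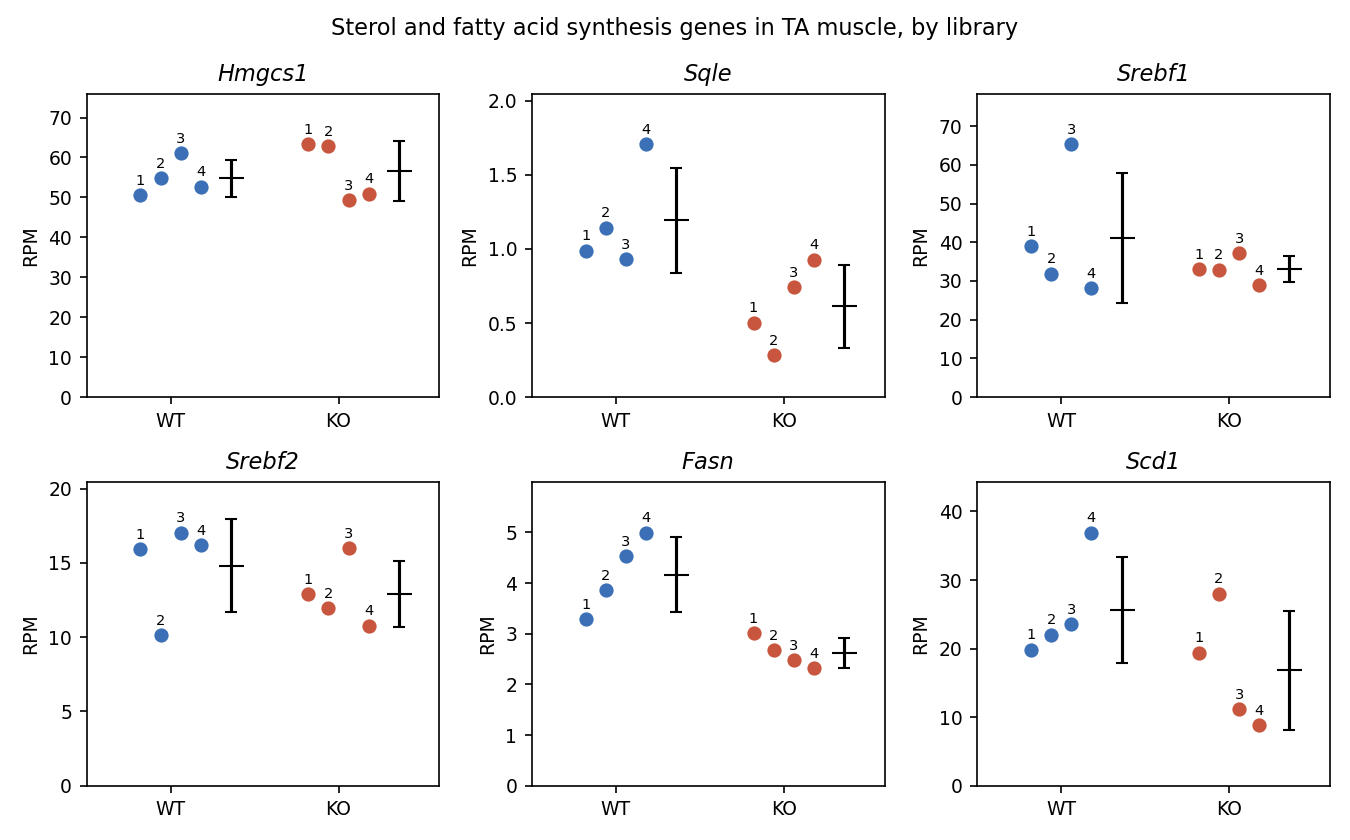
Level of each of the 6 members in RPM (vertical axis, from 0) in the 4 WT (blue) and 4 KO (red) libraries. Small digits give the replicate number, and the black bars are the group mean ± SD. Fasn and Sqle show no overlap between the groups, Hmgcs1 and Srebf2 overlap, Srebf1 has 1 high WT library (WT3, 65.3 RPM), and Scd1 has 2 low KO libraries (11.1 and 8.80 RPM).

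Hmgcs1 encodes the cytosolic HMG-CoA synthase, which condenses acetyl-CoA and acetoacetyl-CoA early in the pathway. It lies on chromosome 13, 119690379 to 119708260, plus strand (GRCm38, GENCODE M21, as for all genes below). Its level was 50.6, 54.9, 61.1 and 52.6 RPM in WT1 to WT4 and 63.3, 62.9, 49.3 and 50.9 RPM in KO1 to KO4. The groups overlapped, with KO1 and KO2 above all WT libraries and KO3 below all of them. The means were 54.8 ± 4.56 and 56.6 ± 7.54 RPM (SD, n = 4 each), and the log2 fold change was 0.04 (SE 0.13, 95% interval -0.24 to 0.32, limma with BH, adjusted p = 0.967). With 379 to 461 reads per library, Hmgcs1 was counted precisely, and its coefficient of variation was 8.32% in WT and 13.3% in KO. The interval leaves room for a KO level between 0.846 and 1.25 times that of WT on the log2(RPM + 1) scale.

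Sqle encodes squalene epoxidase, the first oxygen-dependent step of the sterol branch. It lies on chromosome 15, 59315077 to 59331192, plus strand. Its level was 0.987, 1.14, 0.932 and 1.71 RPM in WT1 to WT4 and 0.501, 0.281, 0.743 and 0.926 RPM in KO1 to KO4. Every KO library lay below every WT library, but WT3 and KO4 were separated by only 0.932 against 0.926 RPM. These values rest on 7 to 14 reads in WT and 2 to 8 reads in KO, so KO1 and KO2 were at or under the floor of 3 reads. An exact two-sided permutation test gave p = 0.0286, which is the lowest value attainable, and is 1 of 6 such tests run on the members. In a fit without the filter, Sqle had a log2 difference of -0.45 (SE 0.18, 95% interval -0.84 to -0.05, limma with BH, adjusted p = 0.548). The coefficient of variation between libraries (29.7% in WT and 45.9% in KO) was about that of counting alone (32.4% and 45.9%). At this depth the level of Sqle could be read only roughly in each mouse.

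Srebf2 encodes SREBP-2 and lies on chromosome 15, 82147181 to 82205379, plus strand. Its level was 15.9, 10.1, 17.0 and 16.2 RPM in WT1 to WT4 and 12.9, 12.0, 16.0 and 10.8 RPM in KO1 to KO4. The groups overlapped, with all 4 KO libraries between WT2, the lowest, and WT3, the highest. The log2 fold change was -0.18 (95% interval -0.57 to 0.22, limma with BH, adjusted p = 0.880). Srebf1 encodes SREBP-1 and lies on chromosome 11, 60199089 to 60222581, minus strand. Its level was 38.9, 31.9, 65.3 and 28.1 RPM in WT1 to WT4 and 33.1, 32.9, 37.1 and 28.9 RPM in KO1 to KO4. WT3 stood apart, and the other WT libraries covered the range of the KO libraries. The log2 fold change was -0.24 (95% interval -0.70 to 0.23, limma with BH, adjusted p = 0.856), and without WT3 it was 0.01 (adjusted p = 0.995). The sources used here do not say which Srebf1 transcripts the amplicon covers, so the forms SREBP-1a and SREBP-1c are not told apart.

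Srebf1 was the 1 member whose libraries separated by sex. The 4 male libraries held 33.1 to 65.3 RPM and the 4 female libraries 28.1 to 32.9 RPM, with KO1 (33.1 RPM) and KO2 (32.9 RPM) nearly touching. Libraries of the sexes did not overlap in 5.26% of all tested genes. The male minus female log2 difference was 0.46 (95% interval 0.08 to 0.84) in a fit with genotype and sex, where 0.6% of all genes passed and Srebf1 did not (limma with BH, adjusted p = 0.401, and 0.282 to 0.741 over 13 alternatives). Without WT3 the male minus female difference was 0.25 (limma with BH, adjusted p = 0.741). Within males the KO minus WT log2 difference of Srebf1 was -0.51 and within females 0.04, over 2 against 2 libraries each. The male WT libraries were WT1 (38.9 RPM) and WT3 (65.3 RPM), and the male KO libraries held 33.1 and 37.1 RPM. The interaction of genotype and sex did not pass for any of the 5 tested members (limma with BH, adjusted p = 0.9997 for each).

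Fasn encodes fatty acid synthase, the enzyme that builds palmitate from malonyl-CoA, and lies on chromosome 11, 120805846 to 120824547, minus strand. Its level was 3.29, 3.86, 4.525 and 4.995 RPM in WT1 to WT4 and 3.01, 2.67, 2.48 and 2.32 RPM in KO1 to KO4. Every KO library lay below every WT library, a pattern shown by 4.56% of all tested genes, and the gap between WT1 and KO1 was small. The means were 4.17 ± 0.748 and 2.62 ± 0.298 RPM (SD, n = 4 each), a KO level of 62.8% of WT. Its log2 difference was -0.51 (SE 0.18, 95% interval -0.89 to -0.12, limma with BH, adjusted p = 0.324), and 465 genes of the table had a smaller p. The exact two-sided permutation test gave p = 0.0286, again the lowest value attainable. The values rest on 27 to 41 reads in WT and 18 to 20 reads in KO. Counting error alone placed WT1 between 2.22 and 4.70 RPM and KO1 between 1.78 and 4.75 RPM (exact Poisson, 95%). Over the alternatives the log2 fold change stayed below 0, from -0.64 to -0.26, and the adjusted p ran from 0.214 to 0.9999. Within males the KO minus WT log2 difference was -0.38 and within females -0.63, over 2 against 2 libraries each.

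Scd1 encodes stearoyl-CoA desaturase, which makes oleate and palmitoleate from saturated fatty acids, and lies on chromosome 19, 44394455 to 44407879, minus strand. Its level was 19.8, 21.997, 23.6 and 36.9 RPM in WT1 to WT4 and 19.4, 28.0, 11.1 and 8.80 RPM in KO1 to KO4. The KO libraries were uneven. KO1 and KO2 lay among or just below the WT values and KO3 and KO4 lay well below all of them. The means were 25.6 ± 7.71 and 16.8 ± 8.72 RPM (SD, n = 4 each). Its log2 difference was -0.67 (SE 0.30, 95% interval -1.31 to -0.02, limma with BH, adjusted p = 0.508), and the exact two-sided permutation test gave p = 0.2. The coefficient of variation was 30.1% in WT and 51.8% in KO, well above the counting error of 7.01% and 9.12%. Without KO2 the log2 fold change was -0.94 and without KO4 it was -0.42, and neither passed (adjusted p = 0.260 and 0.793).

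Scd2, another desaturase gene near Scd1 on chromosome 19 (44293674 to 44306864, plus strand), showed a similar order of libraries. Its level was 10.2, 12.9, 15.3 and 21.4 RPM in WT1 to WT4 and 10.2, 9.42, 6.93 and 6.71 RPM in KO1 to KO4. In both desaturase genes WT4 was the highest library and KO4 and KO3 were the lowest. No KO library of Scd2 reached a WT library, although WT1 (10.198 RPM) and KO1 (10.195 RPM) were all but equal, and the log2 difference was -0.75 (SE 0.22, limma with BH, adjusted p = 0.200). The sources used here do not state how reads shared by near-identical paralogs were counted. Scd3 and Scd4 were at or under the floor of 3 reads in every library.

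Around the members, the genes of sterol synthesis showed no common direction. In the mevalonate list, 7 of 11 genes were in the table and tested, 5 lay below 0 and the median log2 fold change was -0.13. Of the list that leads from squalene to cholesterol, 12 of 14 genes were tested, 6 lay below and 6 above 0 and the median was -0.08, which became 0.067 under quantile scaling. Neither list had a gene past the threshold (0 in limma, edgeR and DESeq2). In limma 1 of the 19 had an unadjusted p under 0.05, as had 9.22% of all tested genes. Over all tested genes 59.2% lay below 0. Pmvk (phosphomevalonate kinase) averaged 15.6 and 12.7 RPM, Mvk (mevalonate kinase) 2.47 and 2.05 RPM, and Acat1, the mitochondrial thiolase that makes acetoacetyl-CoA, 159 and 161 RPM. Fdft1, the squalene synthase that commits farnesyl diphosphate to sterols, averaged 66.2 ± 4.155 and 71.7 ± 3.19 RPM (log2 fold change 0.11, limma with BH, adjusted p = 0.867). Lbr, a nuclear envelope protein that is also a sterol reductase, averaged 27.2 ± 3.02 and 21.3 ± 2.76 RPM (-0.34, adjusted p = 0.439).

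Cyp51, the lanosterol demethylase, had the highest log2 fold change of the 19 tested sterol synthesis genes. Its level was 1.755, 1.857, 1.996 and 2.071 RPM in WT1 to WT4 and 3.18, 3.38, 2.23 and 2.20 RPM in KO1 to KO4. Every KO library lay above every WT library, which held for 0.536% of all tested genes and for 1 of the 92 tested genes of the 9 lists. These values rest on 13 to 17 reads in WT and 18 to 24 reads in KO, with 17 reads in WT4 and 19 in KO4. The log2 fold change was 0.35 (95% interval -0.06 to 0.75, limma with BH, adjusted p = 0.635).

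**Figure D2:**
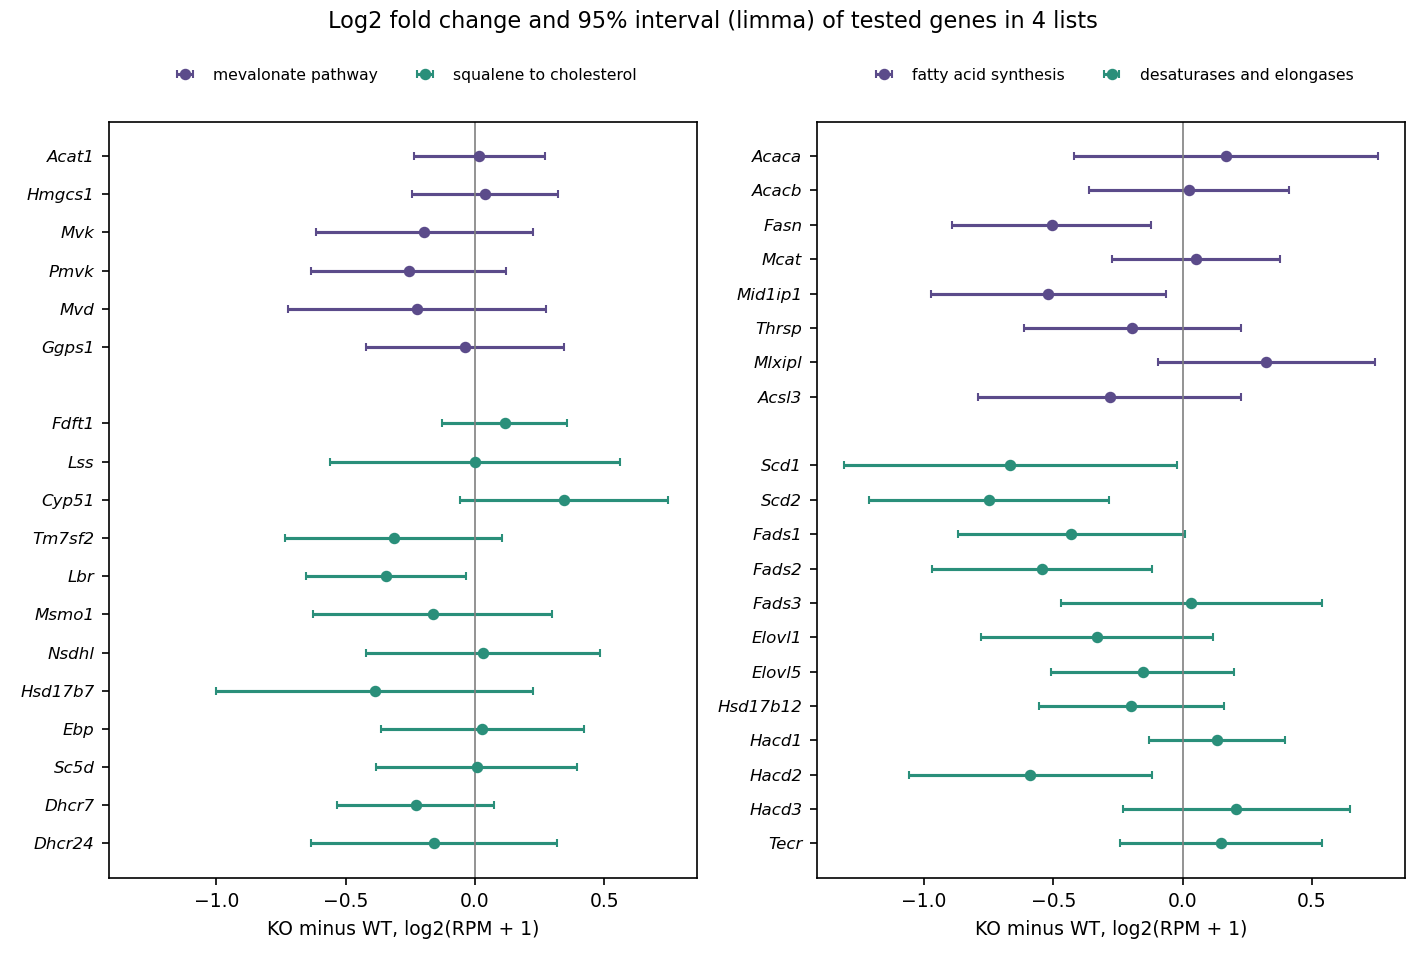
Log2 fold change of KO minus WT on log2(RPM + 1) (horizontal axis) with its 95% interval from limma for tested genes of the mevalonate and cholesterol lists (left) and of the fatty acid synthesis and desaturase and elongase lists (right). Sterol genes lie on both sides of 0, and Fasn (-0.51), Scd1 (-0.67) and Scd2 (-0.75) are among the lowest of the fatty acid genes.

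The machinery that senses sterols and releases SREBPs showed no common direction either. Of 12 genes, all tested, 7 lay above and 5 below 0, the median log2 fold change was 0.01, and 0 passed in limma, edgeR or DESeq2. Scap, the escort protein of SREBPs, averaged 15.9 ± 0.905 RPM for WT and 18.4 ± 1.69 RPM in KO (0.20, limma with BH, adjusted p = 0.755). Mbtps1, the first of the proteases that release SREBPs, averaged 26.1 ± 2.86 and 30.6 ± 3.11 RPM (0.22, adjusted p = 0.712). Insig1, which holds Scap in the endoplasmic reticulum when sterols are plentiful, averaged 8.42 ± 1.99 and 8.46 ± 1.70 RPM. Ubxn4, one of the most abundant genes of the list, averaged 84.9 and 75.6 RPM.

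Genes of sterol uptake and efflux held the lowest values among the sterol lists. Of the uptake and trafficking list, 13 of 15 genes were tested, 9 lay below 0 and the median was -0.15. Of the 9 LXR and efflux genes, all tested, 7 lay below 0 and the median was -0.16. At an unadjusted p under 0.05 in limma, 3 of the 13 uptake genes and 3 of the 9 efflux genes were lower and 0 higher. Of all tested genes 8.56% were lower at that cut. By limma and by edgeR 0 of these genes passed, whereas Lrp1 was called by DESeq2 (adjusted p = 0.0293). DESeq2 called 149 of all 11004 tested genes, and Lrp1 was its 1 call among the 92 tested genes of the lists. Lrp1, a large endocytic receptor, held 32.7, 47.7, 33.7 and 62.6 RPM in WT1 to WT4 and 30.9, 21.9, 24.1 and 21.2 RPM in KO1 to KO4 (-0.79, limma with BH, adjusted p = 0.154). Abca1, the exporter that loads cholesterol onto apolipoproteins, averaged 20.8 ± 4.73 and 13.3 ± 1.96 RPM (-0.60, adjusted p = 0.201). Apoe, the apolipoprotein secreted by macrophages among other cells, held 16.9, 12.1, 12.5 and 30.3 RPM across WT1 to WT4 and 11.7, 7.59, 11.8 and 7.99 RPM across KO1 to KO4 (-0.75, adjusted p = 0.309). In these 3 genes, and in Soat1 (1.70 and 1.02 RPM), which esterifies cholesterol, no KO library reached a WT library, as in 4.56% of all tested genes. Macrophage and fibroblast genes were also lower in KO. All 10 tested macrophage genes lay below 0 (median -0.93), and their summed level was 49.2 to 218 RPM for WT and 29.6 to 39.6 RPM in KO. Apoe, Lrp1, Abca1 and the macrophage sum were all highest in WT4. In WT1 the macrophage sum (101 RPM), Abca1 (20.7 RPM) and Apoe (16.9 RPM) were the next highest, but Lrp1 was at its lowest WT value. Among KO libraries the macrophage sum and Apoe were highest in KO3, and Lrp1 and Abca1 in KO1. Apoe was close in KO3 (11.758 RPM) and KO1 (11.699 RPM). All 9 tested fibroblast genes lay below 0 (median -1.03), with 1492 to 8323 RPM for WT and 615 to 1046 RPM in KO. C1qa, a macrophage complement gene, was at 0 in every WT library. The part of these cells in Lrp1, Abca1 and Apoe was not tested. Among the abundant genes of these lists, Npc2 averaged 97.1 and 70.2 RPM, Vldlr 229 and 227 RPM, Rxra 409 and 422 RPM, and Ncor1 203 and 156 RPM, and none of them passed.

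Along the fatty acid route, the low values of Fasn and the desaturases were not shared by the whole pathway. Of the 8 genes that supply cytosolic acetyl-CoA and NADPH, 6 lay below 0 (median -0.25) and 0 passed in limma, edgeR or DESeq2. G6pdx, the entry enzyme of the pentose phosphate pathway, averaged 3.61 and 2.41 RPM, Pgd 10.2 and 8.22 RPM, and malic enzyme Me1 542 ± 167 and 587 ± 101 RPM. Acss2, which activates acetate, averaged 31.0 and 31.6 RPM, and Acly, which splits citrate into acetyl-CoA, 3.26 ± 0.547 and 2.52 ± 0.713 RPM. Of the 8 fatty acid synthesis genes, 4 lay on each side of 0 (median -0.08). At an unadjusted p under 0.05 in limma, 2 of the 8 were lower (Fasn and Mid1ip1) and 0 higher, where 8.56% of all tested genes were lower. Acacb, the acetyl-CoA carboxylase typical of muscle, averaged 177 ± 40.1 and 179 ± 37.3 RPM (0.03, 95% interval -0.36 to 0.41, limma with BH, adjusted p = 0.990). Mid1ip1, an activator of acetyl-CoA carboxylase, averaged 26.9 ± 4.32 and 19.1 ± 5.94 RPM (-0.52, adjusted p = 0.427), and Mlxipl, the carbohydrate-responsive factor ChREBP, 91.0 ± 25.5 and 113 ± 23.7 RPM (0.32, adjusted p = 0.701).

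Desaturases and elongases had a median of -0.26 over 12 tested genes of 19, with 8 below 0, and the median was -0.082 without the filter and -0.11 without WT4. Again 0 passed in limma, edgeR or DESeq2. At an unadjusted p under 0.05 in limma, 4 of the 12 were lower (Scd1, Scd2, Fads2 and Hacd2) and 0 higher. Of all tested genes 8.56% were lower at this cut and 0.663% higher (942 and 73 of 11004). Over the 9 lists together 13 of the 92 tested genes were lower and 0 higher. Fads2, the delta-6 desaturase of polyunsaturated fatty acids, averaged 3.67 ± 0.504 and 2.24 ± 0.700 RPM (-0.54, limma with BH, adjusted p = 0.346), and Hacd2, a dehydratase of the elongation cycle, 2.73 ± 0.623 and 1.49 ± 0.522 RPM (-0.59, adjusted p = 0.362). Hacd1 and Tecr, the genes of the list with the highest RPM, lay on the other side of 0. Of the other elongation genes, Elovl1 (-0.33), Hsd17b12 (-0.20) and Elovl5 (-0.15) lay below 0 and Hacd3 (0.21) above. Hacd1, the muscle form of the dehydratase, averaged 142 ± 19.6 and 155 ± 4.54 RPM (0.13), and Tecr, the last reductase of the cycle, 510 ± 106 and 567 ± 125 RPM (0.15). Triglyceride synthesis genes had a median of 0.00 over 11 tested genes of 15, 5 above and 6 below 0 (0.04 to 0.06 under the other scalings), with 0 called in limma, edgeR or DESeq2. Lpin1, a phosphatidate phosphatase, averaged 1496 ± 238 and 1481 ± 98.5 RPM, Gpam, the first acyltransferase of the pathway, 299 ± 49.6 and 338 ± 31.2 RPM, Agpat1 74.6 and 83.8 RPM, and Agpat2 5.37 and 3.80 RPM.

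**Figure D3:**
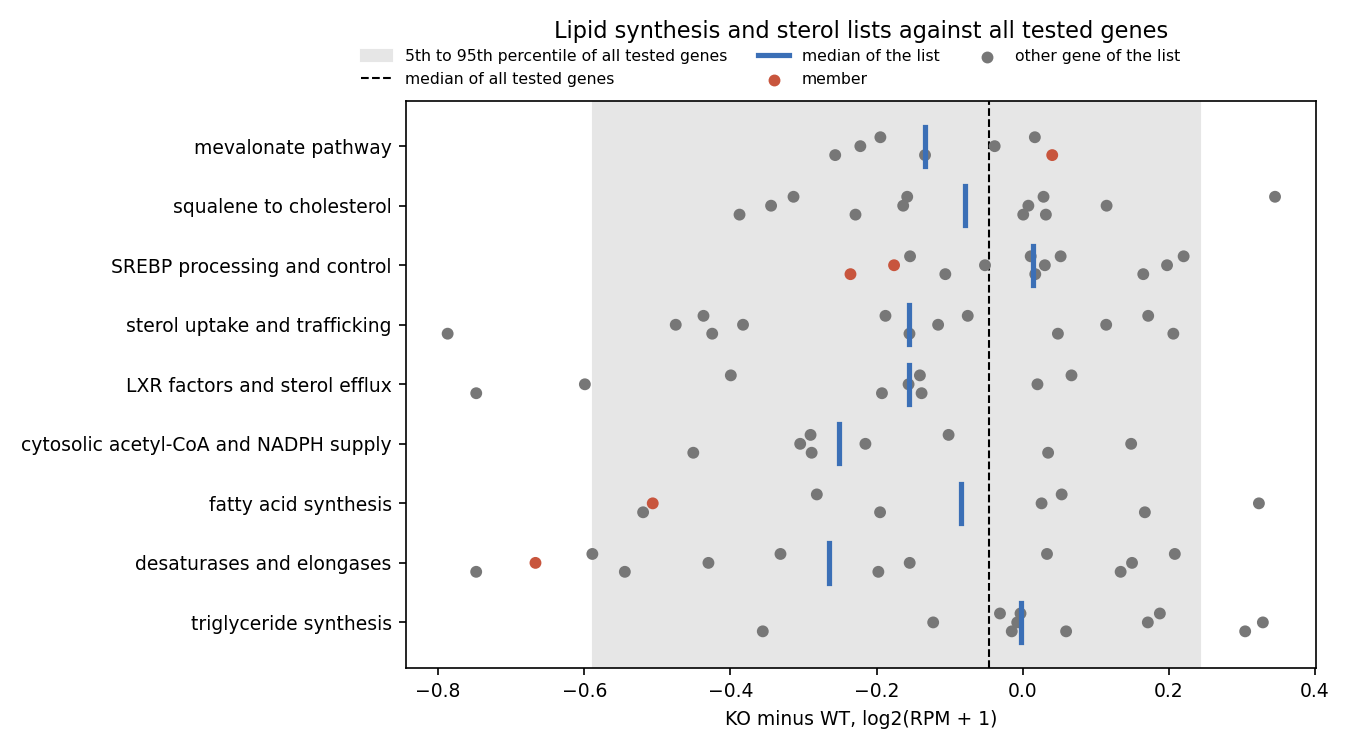
Log2 fold change of KO minus WT on log2(RPM + 1) (horizontal axis) for each tested gene of the 9 lists (rows), members in red, with the list median as a blue bar. The grey band spans the 5th to 95th percentile of all tested genes (-0.59 to 0.24) and the dashed line is their median (-0.05). Of the members, Scd1 lies outside the band.

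Fat cell genes were uneven between the groups. Of 12 adipocyte genes, 8 were tested, 6 of them below 0 (median -0.30), and 0 passed (smallest adjusted p = 0.191, limma with BH). At an unadjusted p under 0.05 in limma, 3 of the 8 were lower and 0 higher, where 8.56% of all genes were lower. Their log2 fold changes ran from -1.19 for Cfd to 0.11 for Lipe, with 0.02 for Aqp7 and -0.07 for Car3. Adipoq, the adipocyte hormone adiponectin, held 1.32, 0.571, 0.532 and 0.731 RPM in WT1 to WT4 and 0.669, 0.422, 0.124 and 0.116 RPM in KO1 to KO4. Plin1, which coats the lipid droplet of fat cells, held 1.53, 1.14, 0.932 and 1.83 RPM across WT1 to WT4 and 0.167, 0.703, 0.371 and 0.231 RPM across KO1 to KO4. Cfd, the adipocyte protease adipsin, held 21.4, 21.7, 9.18 and 17.2 RPM across WT1 to WT4 and 6.85, 12.2, 2.85 and 7.76 RPM across KO1 to KO4. Pck1 held 1.97, 2.43, 1.33 and 1.10 RPM across WT1 to WT4 and 0.334, 0.984, 0.248 and 0.463 RPM across KO1 to KO4. Adipoq and Cfd overlapped between the groups, and Plin1 and Pck1 did not. Of the tested adipocyte genes, Pck1 alone showed no overlap, as in 4.56% of all tested genes. Its values rest on 9 to 18 reads in WT and 2 to 7 reads in KO. The values of Adipoq and Plin1, which were not tested, rest on 1 to 15 reads. The summed level of the list overlapped, at 4640 to 6802 RPM for WT and 4406 to 6360 RPM in KO, and was made up mostly of Car3, which muscle fibres also express. No adipocyte gene was at 0 in all libraries of a group. The part of fat cells in the values of Fasn and Scd1 was not tested.

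Acp5, which encodes an osteoclast phosphatase, held 130, 16.7, 4.66 and 329 RPM in WT1 to WT4, and WT4 was also the highest WT library for Fasn, Scd1 and Scd2. WT1, the next highest for Acp5, was the lowest WT library for those 3 genes. Without WT1 and WT4, the log2 fold change was -0.52 for Fasn (against -0.51 with them), -0.55 for Scd1 (-0.67) and -0.46 for Srebf1 (-0.24). It was -0.04 for Srebf2 (-0.18) and for Hmgcs1 (0.04) (limma with BH, adjusted p = 0.9999 for each). Only WT2 and WT3 remain in the WT group of that fit. It lacks both the highest (WT4) and the lowest (WT1) WT value of Fasn and of Scd1. The part of bone RNA in these values was not tested. Of the remaining cell types, tendon genes had a median of -1.25 over 6 tested genes and bone and osteoclast genes -2.36 over 6. Endothelial genes had a median of -0.07 over 10, Schwann cell and nerve genes, whose myelin needs much cholesterol, -0.16 over 8 (0.018 under quantile scaling), and muscle fibre genes 0.12 over 12. The 1 tested erythroid gene, Alas2, had a log2 fold change of -0.23. None of these genes passed in limma.

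**Figure D4:**
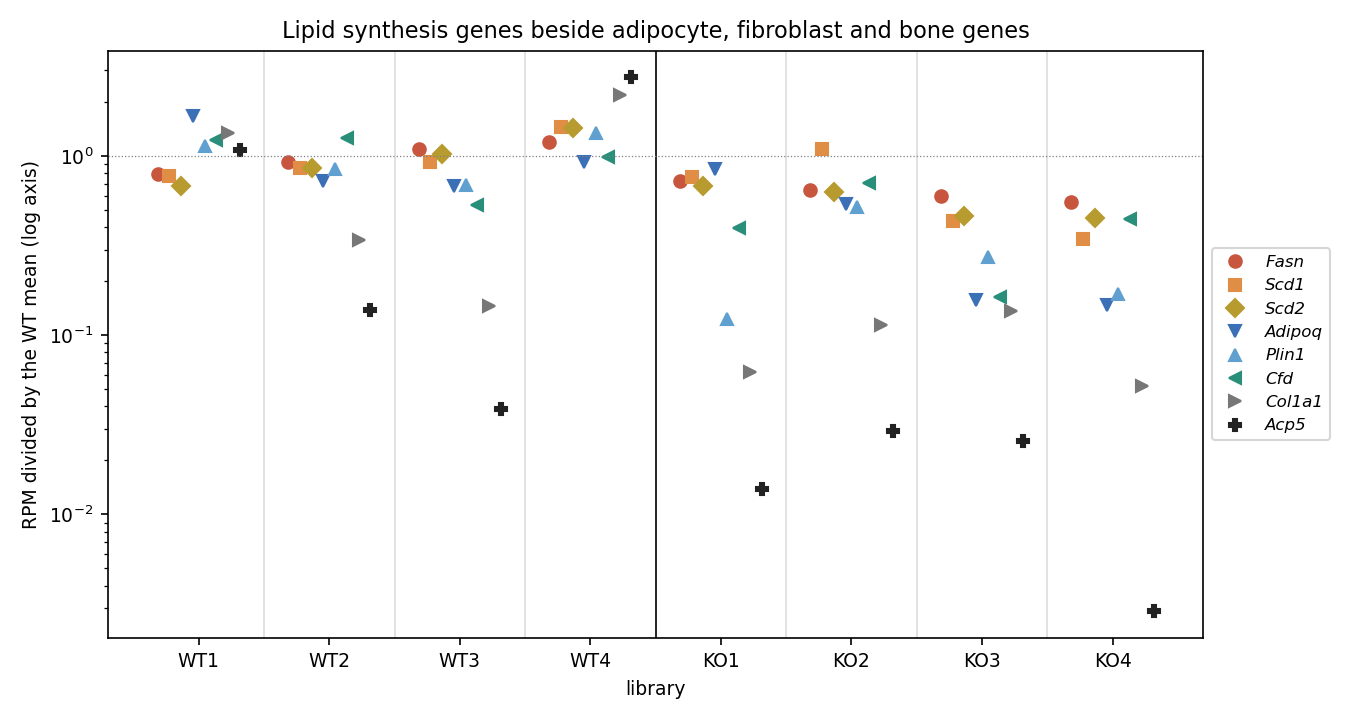
Level of 8 genes in each library divided by their WT mean (log axis). Fasn, Scd1 and Scd2 are lipid synthesis genes, Adipoq, Plin1 and Cfd adipocyte genes, Col1a1 a fibroblast and bone collagen gene and Acp5 an osteoclast gene. The bone and collagen genes differ widely between WT libraries, Acp5 from 4.66 to 329 RPM, while Fasn stays between 3.29 and 4.995 RPM there.

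Across the 8 libraries, the genes whose deviations from the group means were most like those of Fasn and Scd1 combined were Klhdc3 (Pearson r = 0.99), Arhgdia (0.98) and Map2k3os (0.97). They are the top 3 of 8253 candidate genes with a mean of at least 5 RPM, a choice that by itself selects high values over 8 points. Klhdc3 held 145, 159, 166 and 205 RPM in the WT libraries and 198, 201, 139 and 129 RPM in the KO libraries, so it shared the spread within the groups and not the group difference of Fasn.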

How the data were processed

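RNA levels of mouse TA muscle were measured in 8 libraries, 4 per group, grouped by the sample titles. Libraries were built with the Ion AmpliSeq Transcriptome Mouse panel on an Ion Chef robot, per the labels' protocols. The authors deposited 1 table of RPM values, 1 amplicon per gene and 1 column per library, matched to samples by barcode. Transcriptome Analysis Console is the tool listed in the submitters' processing notes. The sources used here give no aligner, build, counting rule or filter. Low RPM values were whole multiples of 1 read, and 100% of values came within 0.1 of a whole read, so reads were recovered for edgeR and DESeq2. Replicate libraries all differed by more than counting noise, with 12.3 to 34.4 chi-square units for each degree of freedom.

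Groups were compared on log2(RPM + 1) with limma 3.58.1 (R 4.3.3, intensity trend, two-sided, BH over 11004 genes), a scale that understates the fold of genes at low RPM. Members were also tested with exact permutation tests over 70 splits, run in Python 3.11.15. The limma procedure was tested on simulated data, in which only genes with a mean of at least 5 RPM were changed. The simulated folds were larger than those of the members, and levels as low as those of Fasn and Sqle were not covered. Alternatives were other pseudocounts, filters and scalings, no trend, library weights, a replicate block, sex as a term, edgeR 4.0.16, DESeq2 1.42.0 and leaving out libraries. Sdhc is the labels' check. The members, the 9 pathway lists, the 9 marker lists and the naming rule (per list, the 2 smallest p and the 2 most abundant genes) were chosen with earlier results of these data known. Other genes given with values (Insig1, Acly, Hacd2, Soat1, Scd2 by library, marker genes) were picked after their values were seen. Some genes of the lists, 1 of them named by the rule, are counted in the lists but not reported here by name. Intervals and floors from reads cover counting error only. The labels speak of separate mice. The p-values rest on the spread between their libraries, which includes counting error, and in limma on variances moderated over all tested genes.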

Additional observations from a re-analysis of the deposited data

Results flagged for a closer look

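Srebf2 in WT2, at 10.1 RPM, lay far from the other WT libraries (15.9, 17.0 and 16.2 RPM). Chance flags about 1 in 20 groups of this size, and both groups of each of the 6 members were examined. Without WT2 the log2 fold change of Srebf2 was -0.34 in place of -0.18, and it did not pass (limma with BH, adjusted p = 0.555). The value rests on 71 reads.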

How the results depend on the processing

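No member passed the BH threshold under any alternative, and of 109 alternative values of the 5 tested members 105 kept their direction. Hmgcs1 turned to -0.016 without KO1, -0.012 without KO2 and -0.041 without WT1 and WT4, and Srebf1 to 0.0088 without WT3. With 1 library left out, log2 fold changes ran from -0.016 to 0.103 for Hmgcs1, -0.387 to 0.0088 for Srebf1, -0.34 to -0.10 for Srebf2, -0.59 to -0.43 for Fasn and -0.94 to -0.42 for Scd1. The count of all genes past the threshold, 3, was 1 under median-ratio, TMM and quantile scaling, without the trend, with the replicate block, in edgeR and without WT1 and WT4. It was 149 in DESeq2 and 1 to 130 with 1 library left out (130 without WT3, 10 without KO1). At an unadjusted p under 0.05 it was 1015, split into 942 lower and 73 higher, against 730 and 383 with median-ratio scaling and 582 and 420 with quantile scaling. Same-numbered libraries were of the same sex, and 3 of the 4 correlations of their deviations were over 0.1 (0.0034 to 0.257), so the numbers were not taken as pairs, and the replicate block changed no call of a member. List medians moved beyond the spread between libraries in 10 of 162 cases. The mevalonate median was -0.011 with a filter at 10 RPM and -0.0040 with quantile scaling. The squalene list was 0.067 with quantile scaling and -0.28 without WT1 and WT4. The supply list was -0.12 with a pseudocount of 5 RPM, 0.035 with the filter at 10 RPM and -0.076 with quantile scaling. The SREBP, uptake and supply lists ran from -0.06 to 0.08, -0.298 to -0.088 and -0.26 to -0.15 with 1 library left out, and the squalene list from -0.20 to -0.0032. The desaturase, fatty acid and LXR lists ran from -0.346 to -0.111, -0.184 to -0.0011 and -0.271 to -0.078, the mevalonate list from -0.17 to -0.083 and the triglyceride list from -0.026 to 0.074. Triglyceride genes lay above 0 (0.04 to 0.06) under the other scalings. The causes were not tested. At this depth Sqle (2 to 14 reads) and Fasn (18 to 41 reads) are limited by counting, as is Cyp51 (13 to 24 reads).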

Other observations

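Vldlr, the very low density lipoprotein receptor, was higher in males than in females. Sex calls rest on Xist and Y-linked transcripts, and the genes below were chosen after their values were seen. Its level stood at 283, 332, 287 and 247 RPM in the 4 males (WT1, WT3, KO1 and KO3) and at 147, 155, 198 and 175 RPM in the 4 females (WT2, WT4, KO2 and KO4). Every male library lay above every female one, and the male minus female log2 difference was 0.76 (SE 0.13, limma with BH and genotype as a term, adjusted p = 0.0187). In the same fit 0.6% of all tested genes passed (66 of 11004). Over 13 alternatives the adjusted p ran from 0.0107 to 0.0795 for Vldlr, past the threshold in 9. Vldlr missed it without any 1 of the 4 WT libraries. The direction held in all 13.

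In 13 of the 92 genes the sexes did not overlap (5.26% of all tested genes), 9 higher and 4 lower in males. Pnpla3, a lipid droplet protein controlled by SREBP-1, averaged 2.32 ± 1.16 RPM in males and 5.89 ± 0.553 RPM in females (adjusted p = 0.0547). Me1 averaged 672 ± 69.1 and 456 ± 57.8 RPM (adjusted p = 0.0652), and Npc1, which moves cholesterol out of lysosomes, 80.2 ± 14.5 and 53.2 ± 2.55 RPM (adjusted p = 0.103). None of these 3 passed, and all p-values are from limma with BH over all genes. Fasn, Scd1 and Hmgcs1 overlapped between the sexes, with adjusted p of 0.984, 0.868 and 0.987.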
